A study of Mus musculus with 17 samples.

Results

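Guanylate-binding proteins (GBPs) and immunity-related GTPases (IRGs) are large and small GTPases that mouse cells make when they meet interferon. The 10 genes described here were picked by name from the 34140 rows of the expression table, with earlier results of these data known. They are the guanylate-binding genes Gbp2, Gbp3, Gbp5, Gbp6 and Gbp7, the regulatory immunity-related genes Irgm1, Irgm2 and Igtp, and the effector immunity-related genes Iigp1 and Tgtp2. All 10 passed the filter on low values and were among the 15271 genes tested. Between irradiated and control skin, all 10 rose averaged over the days, as did 4.36% of all genes tested. By day, 9 rose at day 3 (1.56% of all genes), none passed at day 6 (0.151%) and 4 rose at day 9 (2.33%).

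Both families are switched on by interferons, above all interferon gamma. Such genes often carry a gamma-activated sequence (GAS) or an interferon-stimulated response element (ISRE) in front of their start, and the interferon regulatory factors bind the ISRE. GBPs and effector IRGs gather on the vacuoles of intracellular parasites and bacteria and break them open, while the regulatory IRGs keep the effectors inactive on the cell's own membranes.

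The skin came from C57/BL6j mice, and the study asked which molecules take part in the healing of irradiated wounds. Irradiated skin was sampled at days 3 (3 libraries), 6 (2) and 9 (3) after injury, and skin labelled control at days 0 (2), 3 (2), 6 (2) and 9 (3). Whole-tissue RNA was made into Smart-Seq2 libraries and sequenced in pairs of reads, with 25440773 to 30797409 fragments assigned to genes per library. The values are FPKM, fragments scaled to gene length and to the fragments assigned in the library. The labels used here give no radiation dose, no age and no description of the wound, show no irradiated library at day 0, and do not state whether each library is a different animal. The p-values therefore measure the spread between these samples, which may be technical. In such bulk RNA, fewer cells of a type and less RNA per cell cannot be told apart.

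The library control day 9 replicate 3 stood apart from the other controls. Its 10 genes summed to 203.2 FPKM, against 47.5 and 55.8 FPKM in the other control day 9 libraries and 44.9 to 110.0 FPKM in the controls of the earlier days. Ifng, which encodes interferon gamma, was at 0.725 FPKM there (26 fragments), and at 0 to 4 fragments in the other 8 control libraries and 1 to 5 fragments in the 8 irradiated libraries. Results that rest on it are given with and without it. The mitochondrial share of all FPKM was 21.7% and 31.8% in control day 0 skin, and 8.33% to 12.6% in the 15 later libraries.

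The genes sit in clusters. On chromosome 3 of GRCm38/mm10, Gbp5 (ENSMUSG00000105504, 142493978 to 142522344), Gbp7 (ENSMUSG00000040253, 142530342 to 142550149), Gbp3 (ENSMUSG00000028268, 142560026 to 142573209) and Gbp2 (ENSMUSG00000028270, 142620602 to 142638008) follow each other on the plus strand. Gbp6 (ENSMUSG00000104713, chromosome 5, 105270702 to 105293698, minus strand) belongs to a second GBP cluster. On chromosome 11, Irgm1 (ENSMUSG00000046879, 48861968 to 48871683) and Tgtp2 (ENSMUSG00000078921, 49057194 to 49064206) lie on the minus strand, and Igtp (ENSMUSG00000078853, 58199556 to 58207591) and Irgm2 (ENSMUSG00000069874, 58199618 to 58222782) overlap on the plus strand. Iigp1 lies outside these clusters. Because Igtp overlaps Irgm2 and because Tgtp2 and Gbp6 have near-identical neighbours, Tgtp1 and Gbp10, how fragments were split between these genes is uncertain.

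The 250 bases before the start of 8 members, in 9 windows of the RefSeq promoter table (GRCm38.p6), were searched for GAAA followed after 2 bases of any kind by GAAA, on either strand (the ISRE letters), and for TTCNNNGAA (the GAS letters, which read the same on both strands). A match to these letters is a description, not a bound site. The windows of Igtp (chr11:58199306-58199555, plus strand), Irgm2 (chr11:58214727-58214976, plus strand), Tgtp2 (chr11:49064213-49064462, minus strand) and Gbp7 (chr3:142530086-142530335, plus strand) are shown because they hold both sets of letters and no base of an annotated exon, and because they show how the spacing of the elements differs between them. The Irgm2 window lies inside the annotated span of Irgm2 given above, so it precedes a start within that span. The Tgtp2 window overlaps the annotated span of another gene, Olfr56. Capitals mark the ISRE and GAS letters, and each sequence reads 5′ to 3′ towards the gene.
Igtp: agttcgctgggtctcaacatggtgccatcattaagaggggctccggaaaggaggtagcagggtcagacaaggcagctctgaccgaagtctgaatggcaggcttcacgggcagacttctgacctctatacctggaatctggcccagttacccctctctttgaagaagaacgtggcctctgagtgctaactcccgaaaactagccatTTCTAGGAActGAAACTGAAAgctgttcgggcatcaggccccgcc
Irgm2: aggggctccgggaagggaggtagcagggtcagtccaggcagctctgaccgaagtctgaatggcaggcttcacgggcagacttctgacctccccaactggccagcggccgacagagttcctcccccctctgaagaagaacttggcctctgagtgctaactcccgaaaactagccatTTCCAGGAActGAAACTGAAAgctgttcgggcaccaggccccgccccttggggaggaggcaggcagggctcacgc
Tgtp2: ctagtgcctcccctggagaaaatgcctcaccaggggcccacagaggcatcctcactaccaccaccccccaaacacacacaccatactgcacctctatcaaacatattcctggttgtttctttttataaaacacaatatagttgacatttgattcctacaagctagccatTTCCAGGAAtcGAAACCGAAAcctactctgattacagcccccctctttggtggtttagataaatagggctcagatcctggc
Gbp7: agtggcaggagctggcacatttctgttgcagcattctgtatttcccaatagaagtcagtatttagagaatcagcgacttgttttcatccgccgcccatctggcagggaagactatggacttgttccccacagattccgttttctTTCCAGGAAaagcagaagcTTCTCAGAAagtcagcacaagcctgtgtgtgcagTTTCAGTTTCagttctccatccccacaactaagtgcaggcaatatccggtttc

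The ISRE letters stood in 8 of the 9 windows, against 2.98% of all 32851 windows in the table, and the GAS letters in 5 of 9, against 7.02%. Both stood in the same 5 windows, those of Gbp5, Gbp7, Igtp, Irgm2 and Tgtp2, against 0.33% of all windows. In Igtp, Irgm2 and Tgtp2 the GAS letters ended 2 bases before the ISRE letters began. This arrangement occurred in 5 of the 32851 windows (0.0152%), those of the 3 members and of their relatives Tgtp1 and Gm12185. The spacing of 2 bases was read from the windows of the 3 members, so their place among the 5 was fixed in advance. The windows come from gene families with shared ancestry, so they are not independent of each other.

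The immunity-related genes carried the ISRE letters on the gene's own strand, and the guanylate-binding genes carried them on the opposite strand. In the Gbp2 window they lay 59 to 50 bases before the start, and in the Gbp7 window 53 to 44 bases before it. Gbp3 and Irgm1 each had 2 overlapping copies, in Gbp3 from 45 to 30 bases and in Irgm1 from 30 to 15 bases before the start, with no GAS letters in the window. In Gbp7 the GAS letters lay at 106 to 98 and 87 to 79 bases before the start, farther from the ISRE letters than in Igtp, Irgm2 and Tgtp2. The window at the second annotated start of Gbp3 held neither. The windows of Gbp2, Gbp3, Gbp5 and Irgm1 overlap exons of GENCODE M21 by 18 to 250 bases and are not printed.

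**Figure D1:**
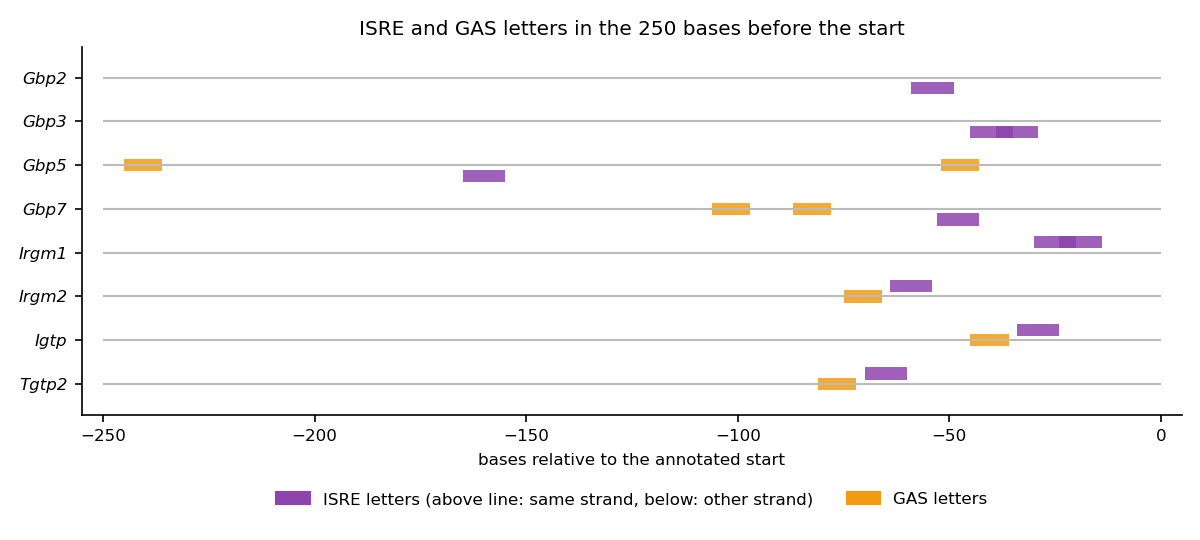
Positions of the ISRE letters (purple) and the GAS letters (orange) in the 250 bases before the annotated start of 8 genes, with distance from the start on the x axis in bases and 1 line per gene. ISRE blocks above the line are on the strand of the gene and those below it on the other strand; in Igtp, Irgm2 and Tgtp2 the 2 elements stand 2 bases apart.

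Among the guanylate-binding genes, Gbp2 had the highest levels. Its product coats the vacuoles of Toxoplasma and the surface of cytosolic bacteria in mouse cells. Gbp2 had 68.3, 93.9 and 120.4 FPKM in irradiated day 3 skin, against 10.7 and 12.8 FPKM in control day 3 skin. Gbp2 at day 6 had 55.6 and 59.4 FPKM in irradiated skin, against 16.6 and 29.8 FPKM in control skin. Gbp2 at day 9 had 51.5, 58.3 and 61.9 FPKM in irradiated skin, against 10.8, 11.2 and 48.9 FPKM in control skin. Irradiated libraries lay above control libraries on each of the 3 days, and the highest control value at day 9 was that of replicate 3. On the log2(FPKM + 1) scale, on which all changes here are given, Gbp2 rose at day 3 by 2.87 (SE 0.517, limma adjusted p 0.0111), while the difference at day 6 was 1.33 (SE 0.567, adjusted p 0.297) and at day 9 was 1.59 (SE 0.463, adjusted p 0.0655). Without control day 9 replicate 3, the day 9 difference was 2.27 (SE 0.288, adjusted p 0.00119).

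Gbp3 lies beside Gbp7 in the chromosome 3 cluster. It had 38.5, 58.9 and 67.4 FPKM in irradiated day 3 skin, against 4.99 and 6.27 FPKM in control day 3 skin. Gbp3 at day 6 had 17.1 and 29.2 FPKM in irradiated skin, against 7.99 and 10.1 FPKM in control skin. Gbp3 at day 9 had 21.9, 32.6 and 46.9 FPKM in irradiated skin, against 6.27, 8.59 and 17.6 FPKM in control skin. No control library reached an irradiated library of its day, and the irradiated day 9 libraries were spread over a wide range. Gbp3 rose by 3.05 at day 3 (SE 0.441, limma adjusted p 0.00458) and by 1.61 at day 9 (SE 0.395, adjusted p 0.0389), and stood at 1.23 at day 6 (SE 0.484, adjusted p 0.268).

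Gbp7 has been linked in mice to the assembly of the phagocyte oxidase. It had 18.4, 23.9 and 26.3 FPKM in irradiated day 3 skin, against 4.52 and 4.55 FPKM in control day 3 skin. Gbp7 at day 6 had 11.5 and 13.7 FPKM in irradiated skin, against 5.56 and 6.76 FPKM in control skin. Gbp7 at day 9 had 13.7, 13.9 and 16.9 FPKM in irradiated skin, against 3.79, 4.30 and 10.8 FPKM in control skin. The groups did not overlap on any day, and control day 9 replicate 3 lay well above the other control day 9 libraries. Gbp7 rose by 2.09 at day 3 (SE 0.322, limma adjusted p 0.00493) and by 1.24 at day 9 (SE 0.288, adjusted p 0.0327), and stood at 0.92 at day 6 (SE 0.353, adjusted p 0.261).

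Gbp5, which has been tied to inflammasome assembly, had 10.2, 13.4 and 17.2 FPKM in irradiated day 3 skin, against 1.33 and 1.67 FPKM in control day 3 skin. Gbp5 at day 6 had 4.99 and 8.56 FPKM in irradiated skin, against 1.79 and 3.21 FPKM in control skin. Gbp5 at day 9 had 5.68, 6.88 and 8.03 FPKM in irradiated skin, against 0.898, 1.41 and 6.84 FPKM in control skin. Its groups were apart at days 3 and 6, and at day 9 control replicate 3 lay inside the irradiated range. Gbp5 rose by 2.52 at day 3 (SE 0.471, limma adjusted p 0.0147), stood at 1.14 at day 6 (SE 0.5165, adjusted p 0.318), and at day 9 stood at 1.24 (SE 0.422, adjusted p 0.103) with that library and 1.87 (SE 0.262, adjusted p 0.00217) without it.

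Gbp6, of the chromosome 5 cluster, was the lowest of the 10 genes. It had 1.66, 3.13 and 4.45 FPKM in irradiated day 3 skin, against 0.383 and 0.436 FPKM in control day 3 skin. Gbp6 at day 6 had 2.40 and 2.53 FPKM in irradiated skin, against 0.467 and 0.775 FPKM in control skin. Gbp6 at day 9 had 2.54, 2.76 and 2.81 FPKM in irradiated skin, against 0.216, 0.284 and 2.05 FPKM in control skin. The groups did not overlap on any day. Its difference at day 3 was 1.47 (SE 0.359, limma adjusted p 0.0663), a scale on which values below 1 FPKM are compressed. On fragments recovered from the FPKM, with limma-voom, it was 2.80 (SE 0.771, adjusted p 0.113). On the log2(FPKM + 1) scale Gbp6 stood at 1.10 at day 6 (SE 0.393, limma adjusted p 0.23) and 1.14 at day 9 (SE 0.321, adjusted p 0.0594).

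The regulatory genes Irgm1, Irgm2 and Igtp (the last also known as Irgm3) encode the proteins that hold effector IRGs in the inactive state. Irgm1 had 26.9, 37.9 and 41.7 FPKM in irradiated day 3 skin, against 5.09 and 6.48 FPKM in control day 3 skin. Irgm1 at day 6 had 14.7 and 20.7 FPKM in irradiated skin, against 6.17 and 8.26 FPKM in control skin. Irgm1 at day 9 had 17.3, 20.1 and 26.3 FPKM in irradiated skin, against 5.53, 6.16 and 14.9 FPKM in control skin. Irradiated libraries lay above control libraries on each day, closest at day 9, where control replicate 3 came near the lowest irradiated library. Irgm1 rose by 2.41 at day 3 (SE 0.382, limma adjusted p 0.00556), and stood at 1.18 at day 6 (SE 0.418, adjusted p 0.229) and 1.27 at day 9 (SE 0.342, adjusted p 0.0506).

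Irgm2 had 28.5, 42.9 and 44.0 FPKM in irradiated day 3 skin, against 6.88 and 7.86 FPKM in control day 3 skin. Irgm2 at day 6 had 20.6 and 22.2 FPKM in irradiated skin, against 9.21 and 10.99 FPKM in control skin. Irgm2 at day 9 had 23.9, 24.7 and 26.6 FPKM in irradiated skin, against 5.05, 6.59 and 19.1 FPKM in control skin. Its irradiated day 6 and day 9 libraries lay in a narrow band above every control. Irgm2 rose by 2.21 at day 3 (SE 0.393, limma adjusted p 0.0102) and by 1.42 at day 9 (SE 0.351, adjusted p 0.0398), and stood at 1.02 at day 6 (SE 0.430, adjusted p 0.293).

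Igtp, whose annotated span overlaps that of Irgm2, had 33.9, 56.8 and 70.3 FPKM in irradiated day 3 skin, against 6.91 and 7.47 FPKM in control day 3 skin. Igtp at day 6 had 26.4 and 35.1 FPKM in irradiated skin, against 9.51 and 15.5 FPKM in control skin. Igtp at day 9 had 30.003, 35.0 and 35.9 FPKM in irradiated skin, against 5.51, 6.74 and 29.2 FPKM in control skin. The groups were apart on each day, but at day 9 the highest control, replicate 3, nearly reached the lowest irradiated library. Igtp rose by 2.68 at day 3 (SE 0.539, limma adjusted p 0.0232), stood at 1.26 at day 6 (SE 0.5905, adjusted p 0.331), and at day 9 stood at 1.59 (SE 0.482, adjusted p 0.0754) with that library and 2.28 (SE 0.318, adjusted p 0.00209) without it.

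Iigp1 (ENSMUSG00000054072, chromosome 18, 60376029 to 60392627, plus strand) and Tgtp2 encode the effectors Irga6 and Irgb6, which load onto the parasite vacuole. Iigp1 had 63.7, 90.7 and 118.6 FPKM in irradiated day 3 skin, against 7.81 and 9.34 FPKM in control day 3 skin. Iigp1 at day 6 had 46.3 and 59.4 FPKM in irradiated skin, against 12.1 and 20.7 FPKM in control skin. Iigp1 at day 9 had 52.5, 59.2 and 66.0 FPKM in irradiated skin, against 7.69, 8.66 and 42.0 FPKM in control skin. Every irradiated library lay above every control library of the series. Iigp1 rose by 3.22 at day 3 (SE 0.563, limma adjusted p 0.0099) and by 1.97 at day 9 (SE 0.504, adjusted p 0.0445), and stood at 1.67 at day 6 (SE 0.617, adjusted p 0.244). Its FPKM match whole fragments with a gene length of 3121 bases and not with the 5823 bases of GENCODE M21, so its level relative to the other genes depends on the length the authors used.

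Tgtp2 had 12.8, 22.5 and 25.0 FPKM in irradiated day 3 skin, against 1.08 and 1.66 FPKM in control day 3 skin. Tgtp2 at day 6 had 7.01 and 8.43 FPKM in irradiated skin, against 2.196 and 4.04 FPKM in control skin. Tgtp2 at day 9 had 11.1, 11.996 and 15.4 FPKM in irradiated skin, against 1.71, 1.85 and 11.8 FPKM in control skin. At day 9 control replicate 3 lay inside the irradiated range, and the other control libraries lay well below it. Tgtp2 rose by 3.11 at day 3 (SE 0.551, limma adjusted p 0.0101), stood at 1.12 at day 6 (SE 0.603, adjusted p 0.4), and at day 9 stood at 1.57 (SE 0.492, adjusted p 0.0828) with that library and 2.30 (SE 0.298, adjusted p 0.00132) without it.

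**Figure D2:**
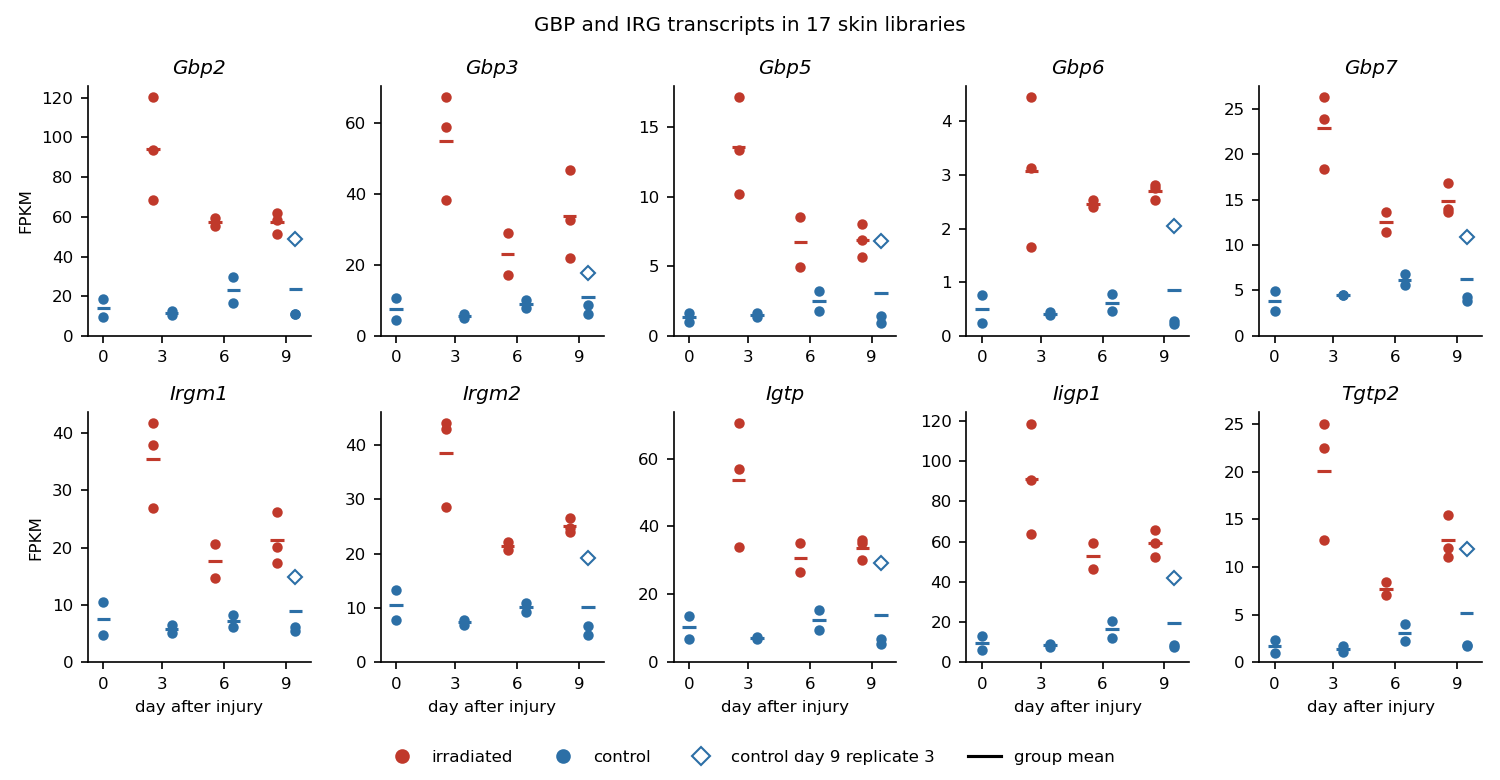
FPKM of the 10 genes (y axis, 1 panel per gene, each with its own scale from 0) by day after injury (x axis) in irradiated (red) and control (blue) libraries, with dashes at the group means. The open diamond is control day 9 replicate 3, at 48.9 FPKM for Gbp2, where the other control day 9 libraries were at 10.8 and 11.2 FPKM.

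At day 3, 9 of the 10 genes rose (limma, adjusted p under 0.05), while 1.56% of the 15271 genes tested rose. Gbp6 was the exception. The log2 fold changes ran from 1.47 to 3.22 with a median of 2.60, and the median of all genes tested was -0.04. In all 10 genes every irradiated library lay above every control library, as in 15.9% of all genes. The count rests on few libraries: it was 0 without control day 3 replicate 3 (adjusted p 0.0978 to 0.408), 2 without control day 3 replicate 1, 3 without irradiated day 3 replicate 1 and 4 without irradiated day 3 replicate 2, with all log2 fold changes still positive. It was 10 without control day 9 replicate 3 (1.84% of all genes). By limma-voom 9 rose.

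At day 6, none of the 10 genes passed limma's test at an adjusted p under 0.05, and 0.151% of all genes rose. The differences ran from 0.92 to 1.67, with a median of 1.16 beside 0.02 for all genes. At an unadjusted p under 0.05, 8 of the 10 were higher, as were 9% of all genes, and limma-voom called 0. Without control day 9 replicate 3 the count was also 0 (0.138% of all genes). In all 10 genes both irradiated libraries lay above both control libraries, as in 19.8% of all genes.

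At day 9, 4 of the 10 genes rose (Gbp3, Gbp7, Irgm2 and Iigp1, limma adjusted p under 0.05), against 2.33% of all genes, and 5 rose by limma-voom, against 2.14%. The differences ran from 1.14 to 1.97, with a median of 1.49 beside 0.02 for all genes. The groups did not overlap in 8 genes, as in 16.8% of all genes, and overlapped in Gbp5 and Tgtp2 through control replicate 3. Without that library all 10 genes rose at day 9, by 1.57 to 2.71 (limma adjusted p 0.000507 to 0.0116), against 2.68% of all genes. The count was 0 without control day 9 replicate 1, control day 9 replicate 2, irradiated day 9 replicate 1 or irradiated day 9 replicate 3. It was 1 without irradiated day 9 replicate 2, and 1 or 2 without any 1 of the control day 3 or irradiated day 3 libraries.

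Averaged with equal weight over days 3, 6 and 9, all 10 genes rose (limma adjusted p 0.000987 to 0.00414), against 4.36% of all genes, and all 10 by limma-voom, against 4.26%. The averaged changes ran from 1.24 for Gbp6 to 2.29 for Iigp1 (SE 0.325), with a median of 1.74 beside -0.01 for all genes. All 10 also rose with any 1 library left out, with a highest adjusted p of 0.0167. Without control day 9 replicate 3 the adjusted p ran from 4.42e-05 to 0.000349, against a background of 4.81% of genes.

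**Figure D3:**
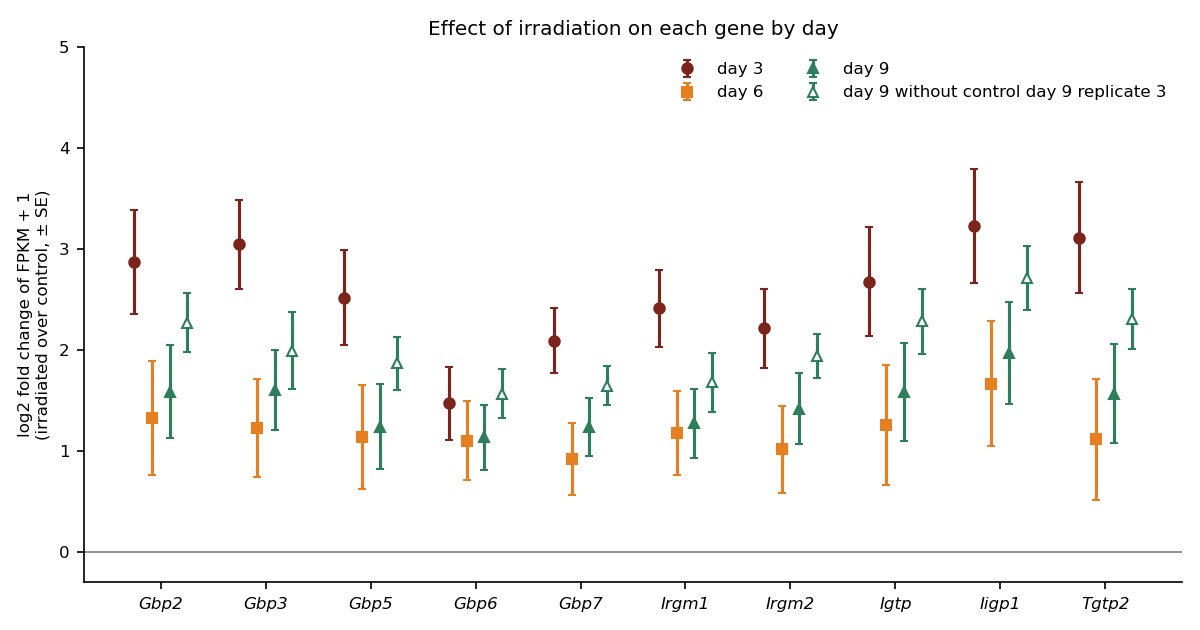
Log2 fold change of FPKM + 1, irradiated over control, for each of the 10 genes (x axis) at days 3, 6 and 9, with bars for the standard error; open triangles give day 9 without control day 9 replicate 3. All values are above 0, between 0.92 and 3.22, and the day 9 values are higher without that library.

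Whether the effect of irradiation changed between days was tested directly. The effect at day 6 minus that at day 3 ran from -1.998 for Tgtp2 to -0.37 for Gbp6, and no gene passed limma's adjusted test, with 4 lower at an unadjusted p under 0.05 (3% of all genes) and 0 by limma-voom. The effect at day 9 minus that at day 3 ran from -1.55 to -0.33, and again no gene passed, with 2 lower at an unadjusted p under 0.05 (6.53% of all genes) and 0 by limma-voom. Over all 15271 genes these tests called 0% in either direction. With all 17 libraries the estimates were lower at the later days in all 10 genes. Without control day 9 replicate 3, the effect at day 9 minus that at day 3 ran from -1.05 for Gbp3 to 0.094 for Gbp6. No gene of the 10 passed limma's adjusted test there, and 0.606% of all genes were lower. The tests do not show a difference between days.

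Within irradiated skin, mean levels ran highest at day 3. Gbp2 averaged 94.2 ± 26.1 FPKM at day 3 (SD, n = 3), 57.5 ± 2.71 FPKM at day 6 (n = 2) and 57.2 ± 5.28 FPKM at day 9 (n = 3). Against irradiated day 3, irradiated day 6 differed by -1.23 to -0.18, and irradiated day 9 by -0.88 to -0.08. None of the 10 passed limma's adjusted test in either comparison, with 4 lower at day 6 and 0 at day 9 at an unadjusted p under 0.05 (7.93% and 9.32% of all genes) and 0 by limma-voom, and 0.38% and 0.583% of all genes fell. Every day 6 library lay below every day 3 library in 8 genes, as in 18.5% of all genes, and every day 9 library did in 5 genes, as in 17.7%.

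With all 17 libraries, none of the 10 genes passed the test over time in control skin. Gbp2 averaged 14.05 ± 6.08 FPKM at day 0 (SD, n = 2), 11.7 ± 1.46 FPKM at day 3 (n = 2), 23.2 ± 9.31 FPKM at day 6 (n = 2) and 23.6 ± 21.9 FPKM at day 9 (n = 3). Against control day 0, differences of the 10 genes spanned -0.43 to 0.22 (day 3), -0.02 to 0.73 (day 6) and -0.21 to 0.84 (day 9). None passed limma's adjusted test, 0 did at an unadjusted p under 0.05 and 0 by limma-voom, while 25.8%, 21.1% and 30.4% of all genes rose and 12.4%, 14.2% and 18% fell. At an unadjusted p under 0.05, 32%, 27.8% and 35% of all genes were higher and 15.3%, 17.7% and 20.2% lower. In these comparisons, which share the day 0 libraries, the median of all genes was itself 0.16, 0.11 and 0.15, and 0.00, 0.01 and 0.04 with median-of-ratios scaling. Control day 9 against control day 3 also gave 0 of 10 by each of these tests (differences 0.22 to 0.98), against 8.02% of genes that rose and 10.2% that fell. Without control day 9 replicate 3, Gbp7 rose at day 6 by 0.59 (limma adjusted p 0.0496, 22.1% of all genes) and Irgm2 fell by 0.73 at day 9 (adjusted p 0.0257, 16.7% of all genes) against day 0. Control day 9 then differed from control day 0 by -0.73 to 0.10 and from control day 3 by -0.30 to 0.34. The positive differences at day 9 thus rested largely on that library.

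The 10 genes moved together across libraries. Over the 17 libraries, which share the irradiation groups, Pearson's r of log2(FPKM + 1) between members ran from 0.931 (Gbp3 and Gbp6) to 0.993 (Gbp2 and Iigp1), with a median of 0.97. Their proportions varied between libraries. Igtp made up 11.2% to 15.3% of the summed FPKM of the 10 genes, Irgm2 8.22% to 17.5% and Tgtp2 2.1% to 5.83%. Per length, Gbp2 made up a median of 22.5% of the summed FPKM of the 10 genes (20.1% to 27.1%) and Iigp1 19.4% (13.7% to 26.1%), followed by Igtp (13.1%), Gbp3 (12%), Irgm2 (9.99%), Irgm1 (8.66%), Gbp7 (6.02%), Tgtp2 (3.59%), Gbp5 (2.66%) and Gbp6 (0.831%). The ranges of Gbp2 and Iigp1 overlap, as do those of Igtp and Gbp3.

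Protein-coding genes outside the 10 were ranked by how closely their levels over the 17 libraries followed the mean profile of the 10, with Pearson's r as the measure. Among the 8 closest were the IRG genes Ifi47 (r = 0.984) and Gm4951 (r = 0.979), Gbp9 (r = 0.976), the chemokine gene Cxcl10 (r = 0.963), the immunoproteasome subunit gene Psmb10 (r = 0.962), the transcription factor gene Batf2 (r = 0.962) and the large GTPase gene Gvin1 (r = 0.958). These values share libraries and groups and carry no test.

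Relatives of the 10 genes rose as well. Of 25 further GBP and IRG names, 18 were found and 16 tested. Averaged over the days, 12 of the 16 rose and none fell (limma, against 4.36% of all genes that rose and 2.57% that fell), with a median of 0.92. At day 3, 9 rose (1.56% of all genes), at day 6 none did (0.151%) and at day 9, 4 rose (2.33%). Leaving out any 1 library moved the averaged count between 8 and 14, and it was 14 without control day 9 replicate 3. It was 8 without control day 3 replicate 3 or irradiated day 3 replicate 1. The day 3 count fell to 1 without control day 3 replicate 3, 2 without control day 3 replicate 1, 3 without irradiated day 3 replicate 1 and 4 without irradiated day 3 replicate 2. The day 9 count was 12 without control day 9 replicate 3, and 1 or 2 without either other control day 9 library or irradiated day 9 replicate 3.

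Ifi47, an IRG gene whose promoter window held neither set of letters, had 30.5, 44.9 and 47.2 FPKM in irradiated day 3 skin, against 5.89 and 7.35 FPKM in control day 3 skin, and rose by 1.52 averaged over the days (SE 0.268, limma adjusted p 0.00512). Gm12250, an IRG gene also known as Irgb10, had 31.2, 45.8 and 51.9 FPKM in irradiated day 3 skin, against 3.15 and 4.52 FPKM in control day 3 skin, and rose by 2.13 (SE 0.327, adjusted p 0.0024). Gm4951 rose by 2.18 (SE 0.222, adjusted p 0.000236), F830016B08Rik by 1.96 (SE 0.209, adjusted p 0.000323) and Gbp9 by 0.95 (SE 0.185, adjusted p 0.00897). Their irradiated day 3 libraries lay above the control day 3 libraries in each case, as in 15.9% of all genes.

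Irgq differed from these genes: it lay between 3.71 and 7.24 FPKM in all 17 libraries, and its averaged difference was 0.00 (SE 0.0651, limma adjusted p 0.993). Its promoter window held neither the ISRE nor the GAS letters. Gbp2b, which lies in the chromosome 3 cluster, stayed between 0.0241 and 0.595 FPKM and was not tested, although its window holds the ISRE letters. Irgc1, an IRG gene of the testis, stayed between 0.012 and 0.0964 FPKM. Of the 8 windows matched to the further genes, 4 held the ISRE letters and 3 the GAS letters.

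**Figure D4:**
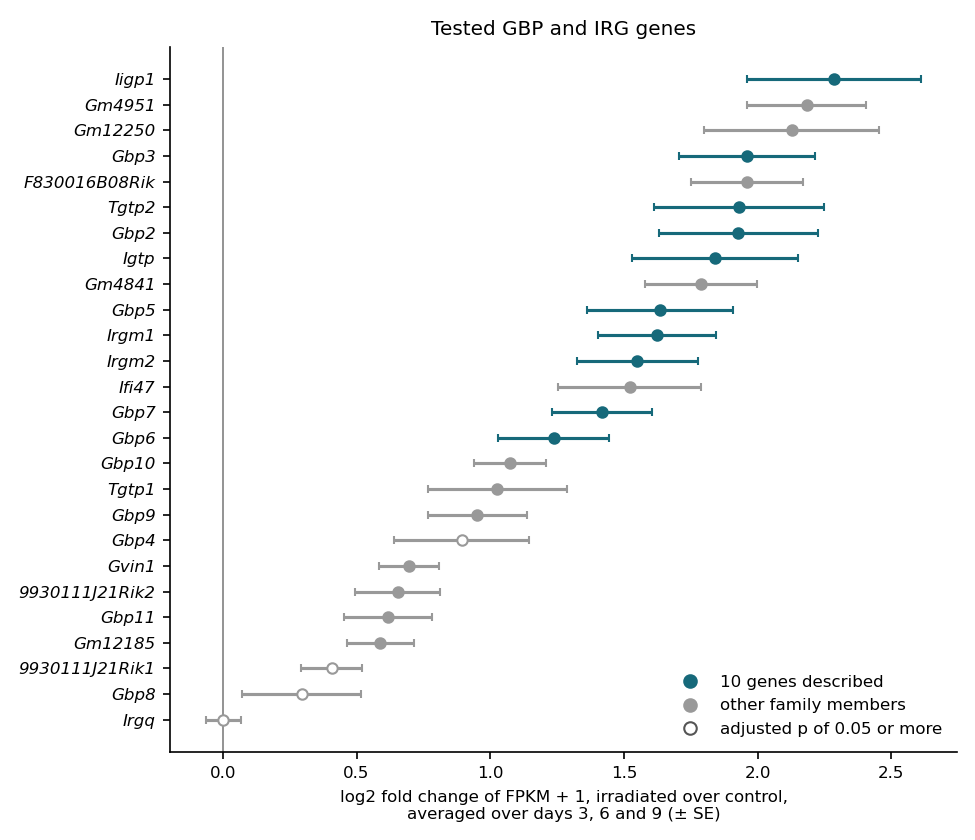
Log2 fold change of FPKM + 1, irradiated over control, averaged over days 3, 6 and 9 (x axis, bars are the standard error) for the 10 genes (teal) and 16 tested relatives (grey), ordered by value; open points have an adjusted p of 0.05 or more. Iigp1 stands at 2.29 and Irgq at 0.00.

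Ifng was near the limit of detection. It had 5, 3 and 1 fragments in irradiated day 3 skin, against 0 and 0 in control day 3 skin, where a count of 0 allows up to 3 fragments. At day 6 it had 2 and 3 fragments in irradiated skin, against 4 and 4 in control skin. At day 9 it had 3, 5 and 4 fragments in irradiated skin, against 2, 2 and 26 in control skin. All irradiated libraries lay between 1 and 5 fragments, and only control day 9 replicate 3 lay above that. Ifng did not pass the filter and was not tested.

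Of 24 interferon ligand, receptor and signalling names, 23 were found and 19 tested, and 4 rose averaged over the days and none fell (limma, against 4.36% of all genes, list median 0.20). With any 1 library left out the count was 4 or 5. Usp18, which curbs type I interferon signalling, rose by 2.2 (SE 0.266, limma adjusted p 0.000687). Stat2 and Irf9, whose products act together at the ISRE after type I interferon, rose too, Stat2 by 1.31 (SE 0.185, adjusted p 0.00141) and Irf9 by 0.61 (SE 0.116, adjusted p 0.00772). Usp18 had 26.3, 41.0 and 45.9 FPKM in irradiated day 3 skin, against 2.10 and 4.12 FPKM in control day 3 skin. These groups did not overlap, and 15.9% of all genes had every irradiated day 3 library above every control.

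Irf1, a factor that interferon gamma induces and that binds the ISRE, did not pass. It had 13.2, 16.2 and 16.5 FPKM in irradiated day 3 skin, against 7.33 and 8.76 FPKM in control day 3 skin, a difference of 0.85 (SE 0.394, limma adjusted p 0.439). At day 9 it had 12.4, 13.1 and 18.1 FPKM in irradiated skin, against 9.77, 10.7 and 27.3 FPKM in control skin, the last in replicate 3, and its averaged difference was 0.28 (SE 0.227, adjusted p 0.5). Irradiated libraries lay above controls at day 3, as in 15.9% of all genes. At day 9 the highest Irf1 value of the series was in that control library.

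The lists of genes that GBPs and IRGs work with are set beside the 4.36% of all genes that rose in the averaged comparison. Of 14 genes for Atg8 conjugation and vacuole ubiquitin, which guide these GTPases to their targets, only Trim21 passed the averaged test, rising by 0.94 (SE 0.108, limma adjusted p 0.000556), and the list median was 0.04. Trim21, a ubiquitin ligase that binds antibody, had 9.56, 12.7 and 13.6 FPKM in irradiated day 3 skin, against 2.99 and 3.04 FPKM in control day 3 skin. Of 10 inflammasome genes, 2 rose, against the same 4.36% of all genes, Casp4 by 0.89 (SE 0.221, adjusted p 0.0309) and Casp1 by 0.52 (SE 0.105, adjusted p 0.0105), with a list median of 0.19. With any 1 library left out the first count was 1 or 2 and the second 1 to 3. These caspases act downstream of GBPs in the response to cytosolic bacteria.

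Markers of cell types were read beside these results, and their part in them was not tested. The 12 T and NK cell markers summed to 10.5 to 20.95 FPKM in irradiated day 3 skin, against 4.57 and 8.80 FPKM in control day 3 skin. At day 6 they summed to 20.8 and 32.0 FPKM in irradiated skin, against 23.8 and 40.3 FPKM in control skin. At day 9 the sums were 29.1 to 41.2 FPKM in irradiated skin, against 10.1, 10.8 and 85.1 FPKM in control skin, the last in replicate 3. The list was split at day 9. Irradiated Gzma (7.72 to 11.1 FPKM) and Gzmb (8.45 to 15.7 FPKM) lay above every day 9 control, as in 16.8% of all genes. Irradiated Trac (0.936 to 1.7 FPKM, against 2.12 to 22.2 FPKM), Cd3d and Cd3g lay below every day 9 control, as in 17.2% of all genes. The other markers of the list overlapped. Of the 9 markers tested, 2 rose averaged over the days, against 4.36% of all genes, the granzyme genes Gzma (1.48, SE 0.332, limma adjusted p 0.0195) and Gzmb (1.505, SE 0.326, adjusted p 0.0161). Neither passed without control day 3 replicate 3, and without control day 9 replicate 3 Cd3g and Trac fell.

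At day 3, genes of the T cell receptor complex were at low levels in both groups. Cd3e, a chain of the T cell receptor complex, was at 0.0502 to 0.0753 FPKM in irradiated day 3 skin, against 0.116 and 0.133 FPKM in control day 3 skin. Trac, the receptor's alpha constant gene, was at 0.11 to 0.347 FPKM in irradiated day 3 skin, against 0.397 and 1.35 FPKM in control day 3 skin. Cd3g, another chain of the complex, was at 0.258, 0.386 and 0.439 FPKM in irradiated day 3 skin, against 0.423 and 0.573 FPKM in control day 3 skin. Every irradiated day 3 library lay below every control day 3 library for Cd3e and Trac, as in 25.1% of all genes, while Cd3g overlapped. Cd3d, Cd4 and Cd8a of the same list also lay below without overlap. Gzma, Gzmb, Il2rb, Ncr1 and Klrb1c lay above without overlap, as in 15.9% of all genes, and Nkg7 overlapped. Gzmb was at 4.37 to 9.93 FPKM in irradiated day 3 skin, against 0.493 and 1.19 FPKM in control day 3 skin. In control day 9 replicate 3 Trac was at 22.2 FPKM and Cd3e at 2.95 FPKM. Ncr1 was at 0 in 1 control day 0 library and Cd8a in 1 irradiated day 6 library.

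Of 10 macrophage and monocyte markers, 3 rose averaged over the days, against 4.36% of all genes: the Fc receptor gene Fcgr1 by 1.605 (SE 0.244, limma adjusted p 0.00225), the complement gene C1qa by 1.03 (SE 0.275, adjusted p 0.0436) and the lysosomal gene Cd68 by 0.91 (SE 0.235, adjusted p 0.0363). Their summed level was 1434.5 to 2897 FPKM in irradiated day 3 skin, against 1320.1 and 1769 FPKM in control day 3 skin. At day 6 it was 1524 and 2238 FPKM in irradiated skin, against 1039.5 and 1569 FPKM in control skin. At day 9 it was 1736 to 1958 FPKM in irradiated skin, against 1553 to 2222 FPKM in control skin. The count of markers that rose was 1 without any 1 of 11 libraries, and Fcgr1 was then the gene that passed. None of the endothelial (8), keratinocyte (9), fibroblast (7) or neutrophil (7) markers passed the averaged test with all libraries. With any 1 library left out, this still held for the endothelial and fibroblast markers. It did not hold throughout for the others: some neutrophil markers rose without irradiated day 6 replicate 3, and a keratinocyte marker fell with a library left out. Without control day 9 replicate 3, the neutrophil genes S100a8 and S100a9 rose at day 9.

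**Figure D5:**
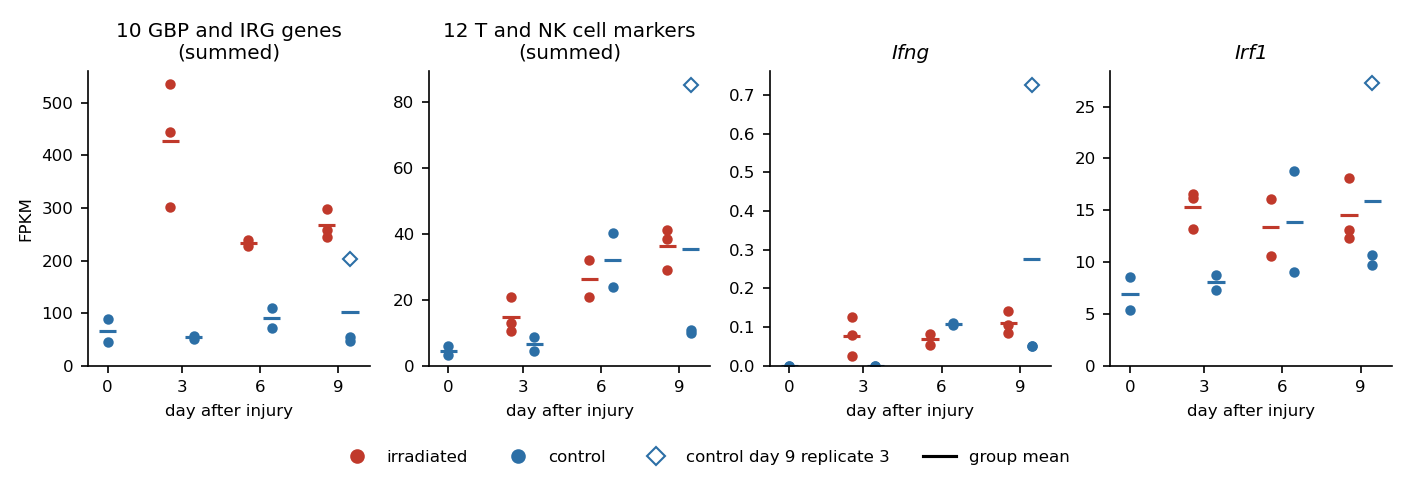
FPKM (y axes, each panel with its own scale from 0) by day after injury (x axis) of the 10 genes summed, 12 T and NK cell markers summed, Ifng and Irf1 in irradiated (red) and control (blue) libraries, with dashes at the group means. Control day 9 replicate 3 (open diamond) has the highest T and NK cell sum, 85.1 FPKM, and the highest Ifng, 0.725 FPKM, of all 17 libraries.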

How the data were processed

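The authors deposited FPKM for 34140 genes in 17 libraries. The submitters' processing notes name HISAT2 2.2.1 and the build mm10. What counted the fragments, with which annotation and whether by strand, is not given in the sources used here. All values were analysed as log2(FPKM + 1), so changes of genes below 1 FPKM are compressed. The 15271 genes that reached 1 FPKM in 2 or more libraries were fitted with limma 3.58.1 (limma-trend, in R 4.3.3) with 1 mean per group over the 17 libraries. Two-sided p-values had Benjamini-Hochberg adjustment over all 15271, with 0.05 as the threshold. The fitting was tested on simulated data. The control comparisons with day 0 share its libraries.

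With gene lengths from GENCODE M21, or a fitted length for 2659 genes, 99.983% of nonzero FPKM were whole fragments within 0.01 fragments. These fragments gave the depths and the limma-voom alternative. No sample of the table was left out. The members and the lists were chosen with earlier results of these data known. The genes named were all 10 members, up to 6 tested relatives with the highest mean FPKM, up to 4 passing genes per other list, Ifng and Irf1, and the 8 genes with the profile most like the members; a gene that these rules also named is not reported here. Relatives, macrophage genes, T and NK cell genes, and S100a8 and S100a9, given beyond these, were chosen after their values were seen. Promoter windows are from RefSeq (GRCm38.p6); 8 of the 10 members matched.

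Replicate numbers were not taken as pairs, since the deviations from the group means of irradiated and control libraries with 1 number correlated, by day, with r from -0.122 to 0.298. Alternatives changed the pseudocount, the filter (none, or a higher minimum), the scaling (median-of-ratios, quantile or nuclear genes), the fit (limma-voom, robust, array weights, a block for replicate number, or fewer groups) and the libraries, each left out in turn. List counts with a library left out were added after seeing the data. Figures were drawn with matplotlib 3.10.9 in Python 3.11.15.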

Additional observations from a re-analysis of the deposited data

How the results depend on the processing

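In the averaged comparison all 10 genes rose under 11 of the 12 alternatives and with each library left out in turn. The exception was a minimum of 5 FPKM, which removed Gbp6 and left 9 genes, all of which rose. The day 6 count stayed at 0 in all of these. The day 3 count ran from 0 to 10 and the day 9 count from 0 to 10 with 1 library left out. At day 9 the count was 0 with no filter on low values, 0 with only the groups compared, 2 with the replicate block and 10 with array quality weights, against 4 in the fit reported. Array quality weights also gave 1 for the effect at day 9 minus that at day 3 and 4 for irradiated day 9 against irradiated day 3, against 0 for each in the fit reported. Without 1 library, control day 6 against day 0 and control day 9 against day 0 each gave 0 to 1. The uncalled day 9 minus day 3 difference of Gbp6 changed sign, to 0.031 with array quality weights and 0.094 without control day 9 replicate 3, and ran as low as -0.61 without irradiated day 3 replicate 3. The cause of these changes was not tested. Fits with fewer libraries or groups also have fewer residual degrees of freedom, and the part this played was not tested either. The replicate block moved Igtp at day 3 to an adjusted p of 0.0563 in limma and, apart from the day 9 count, changed no count of the 10 genes by over 1.5 times. Leaving out a library of a group of 2 leaves a lone library that is assumed to vary like the other groups. Low fragment counts limit what can be read from Ifng, and the use of 2 or 3 libraries per group limits every comparison by day.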
